A study of Mus musculus with 2 samples.

Results

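The kinesin motor family of the mouse was described here across the cells of a medulloblastoma model, as the genes whose symbol is Kif or Kifc followed by a digit and that stood in both deposited expression matrices. This rule found 39 genes among the 16550 that the matrices share, 495 of them matched through an older symbol. Of the 39, 38 encode proteins of the kinesin family and 1, Kif1bp, encodes a protein that binds kinesins. They were grouped by known role into 13 mitotic members, 16 members that carry cargo (called transport members), 6 members of the cilium or the Hedgehog pathway and 4 others. Over the kept cells, 31 members had at least 50 molecule counts (unique molecular identifiers, UMIs) in at least 1 library and are described with values. The other 8 (Kif6, Kif9, Kif19a, Kif26a, Kif26b, Kif27, Kifc2 and Kifc3) had between 2 and 41 UMIs in each library.

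Kinesins are ATP-driven motors that step along microtubules or take them apart at their ends. Mitotic kinesins push spindle poles apart, move and align chromosomes and build the midzone at which a dividing cell is cut. Transport kinesins carry vesicles, mitochondria and other cargo, above all along the axons and dendrites of neurons, and cerebellar granule neurons, the lineage from which this tumour type arises, stop dividing before they extend their axons.

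Cells came from medulloblastomas of hGFAPcre;Ptch c/c mice, in which a Cre recombinase under a human GFAP promoter acts on a conditional Ptch allele, Ptch being the receptor that holds the Hedgehog pathway in check. A GFAP-promoter Cre acts in many neural cell types, not in granule neuron progenitors alone. Tumours were taken at postnatal day 12 (P12, 1 library) or between postnatal days 24 and 30 (P24-30, 1 library), and cells were sequenced by Drop-seq, which captures the 3' ends of transcripts on barcoded beads in droplets. How many animals each library pools was not given. Mice of both ages carried the same genotype, and no normal control was analysed here. With 1 library per age there is no replicate: no test between conditions was possible, and each interval below covers counting error only.

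The P12 library kept 5723 cells with a median of 1805 UMIs and the P24-30 library 4789 cells with a median of 2193. Kinesin members took 0.351% of all UMIs at P12 and 0.232% at P24-30. P12 cells were clustered without the genes of Kif or Kifc symbol, though other spindle genes, among them the kinesin Cenpe, stayed in. Most comparisons here use 2 clusters. The 1101 G2/M-like cells (median 2384 UMIs) were led by Cdc20, Cenpa and Ube2c. The 614 neuron-like cells (median 1452 UMIs) were led by Cntn2, Neurod1 and Dpysl3. The cells of P24-30 carry 16 tags in their names, Hi_G1 to Hi_G16, whose meaning the labels do not give. By summed marker genes, tag G16 (417 cells) was the most mitotic, with 14524 counts of 19 G2/M markers per 1e+06 UMIs (CPM). Tag G12 (206 cells) was the most neuronal, with 11078 CPM of 13 neuron markers, of which Gabra6, a gene of mature granule neurons, was at 0. Markers of other cell types were also present: 12 oligodendrocyte-lineage markers summed to 894 CPM in G12 and 242 CPM in G16, with 11 and 9 of them seen, and to 388 CPM in the neuron-like and 425 CPM in the G2/M-like P12 cells. In G12 and G16, 10 astrocyte and Bergmann glia markers summed to 472 and 213 CPM (8 and 10 seen), and 5 choroid plexus markers to 294 and 99.1 CPM (3 seen in each, Folr1 and Kcnj13 at 0). At P12 these lists summed to 231 and 38.6 CPM in neuron-like and to 216 and 27.7 CPM in G2/M-like cells. The part of such cells in the kinesin levels was not tested. P24-30 cell names hold no barcodes, so barcodes shared between the libraries could not be counted.

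Promoter windows are shown first. Whether their motifs bear on the levels described below was not tested. RefSeq windows (build GRCm38.p6) were found for 31 of the 39 members. The 250 bases before each start were searched on both strands for TTTGAA, the cell cycle homology region found in many late cell cycle genes, and for CCAAT, the box bound by NF-Y. TTTGAA stood in 5 of 12 mitotic promoters (41.7%), in 1 of 12 transport promoters (8.33%, from 10 genes) and in 15.99% of all 32851 promoters. Among these TTTGAA windows, those of the mitotic Kif2c and Kif14 and of the transport member Kif1a lay wholly inside the annotated gene, not before it. CCAAT stood in 8 of 12 mitotic promoters (66.7%), in 4 of 12 transport promoters (33.3%) and in 33.8% of all promoters. The CCAAT windows of the mitotic Kif4 and Kif14 likewise lay inside the annotated gene. These windows are not all independent. The mitotic count holds both Kifc1 and its near copy Kifc5b, and the transport count holds overlapping Kif1b windows with the same boxes. A match is a description of the letters, not of a bound site, and a listed start need not be the one used in these cells.

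Below, the 200 bases before the start are printed 5' to 3' on the gene's strand, with TTTGAA and CCAAT, or their reverse complements TTCAAA and ATTGG, in capitals. Kif11 (chr19:37376182-37376381, plus strand) and Kif22 (chr7:127042421-127042620, minus strand) hold both motifs, with TTTGAA beginning 19 and 17 bases before the start and CCAAT 45 and 54 bases before it. Kif15 (chr9:122950881-122951080, plus strand) holds TTTGAA at 19 bases. Kifc1 (chr17:33890634-33890833, minus strand) and its near copy Kifc5b (chr17:26916891-26917090, plus strand) each hold a pair of CCAAT boxes, at 74 and 45 bases and at 46 and 17 bases. Kif5c (chr2:49619086-49619285, plus strand) and Kif21a (chr15:91049952-91050151, minus strand), transport members, hold neither motif in this window. The printed windows are examples and do not show a clean split between the roles. Among those not printed, the mitotic Kif18a and Kif20b hold neither motif. The transport members Kif1b, Kif3a and Kif3b hold CCAAT, and a window of Kif1a holds TTTGAA.
Kif11: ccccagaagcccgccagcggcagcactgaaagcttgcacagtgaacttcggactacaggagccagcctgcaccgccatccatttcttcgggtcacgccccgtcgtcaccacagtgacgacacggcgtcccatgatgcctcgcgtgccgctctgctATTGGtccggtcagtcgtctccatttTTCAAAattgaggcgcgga
Kif22: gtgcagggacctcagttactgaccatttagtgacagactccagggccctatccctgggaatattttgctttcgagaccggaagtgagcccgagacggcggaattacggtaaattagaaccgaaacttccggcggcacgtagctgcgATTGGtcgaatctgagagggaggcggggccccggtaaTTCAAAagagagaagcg
Kif15: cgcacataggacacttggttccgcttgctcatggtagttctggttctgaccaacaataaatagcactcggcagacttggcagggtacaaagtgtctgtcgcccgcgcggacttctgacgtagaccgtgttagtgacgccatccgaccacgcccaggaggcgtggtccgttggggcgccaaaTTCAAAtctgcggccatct
Kifc1: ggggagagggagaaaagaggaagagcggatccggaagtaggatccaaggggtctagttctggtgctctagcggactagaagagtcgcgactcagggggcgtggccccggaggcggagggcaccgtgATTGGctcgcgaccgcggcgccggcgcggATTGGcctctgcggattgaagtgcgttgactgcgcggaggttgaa
Kifc5b: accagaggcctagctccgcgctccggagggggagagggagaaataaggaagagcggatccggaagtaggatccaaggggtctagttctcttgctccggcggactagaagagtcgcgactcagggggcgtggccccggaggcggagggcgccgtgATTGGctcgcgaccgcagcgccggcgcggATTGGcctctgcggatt
Kif5c: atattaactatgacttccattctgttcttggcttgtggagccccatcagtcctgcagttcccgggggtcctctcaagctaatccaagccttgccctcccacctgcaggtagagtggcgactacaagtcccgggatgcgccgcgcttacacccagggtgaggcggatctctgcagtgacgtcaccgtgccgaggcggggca
Kif21a: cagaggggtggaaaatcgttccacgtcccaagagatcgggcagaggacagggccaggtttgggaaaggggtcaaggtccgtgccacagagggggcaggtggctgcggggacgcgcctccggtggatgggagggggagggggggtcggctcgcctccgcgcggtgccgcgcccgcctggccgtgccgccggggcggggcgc

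In P12 cells the mitotic members were high in the G2/M-like cluster and near the bottom of their range in neuron-like cells. All 13 were at least 2-fold higher in G2/M-like than in neuron-like cells, where 12.2% of the 8334 genes with at least 50 UMIs over both clusters were. Their median log2 ratio was 5.06, with a range from 3.27 to 7.75, against -0.04 over all genes with that many UMIs. Each of the 13 met that minimum through G2/M-like cells alone, and none was left out. Summed over the 13 members, the level was 3620.2 CPM in G2/M-like and 108 CPM in neuron-like cells.

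Among the motors that build and hold the bipolar spindle, Kif11, which slides antiparallel microtubules apart, stood at 394 CPM (371 to 417) in G2/M-like and 10.2 CPM (4.87 to 18.7) in neuron-like cells, a 38.7-fold ratio (21.0 to 80.9). Kif15, which acts beside Kif11 on the spindle, stood at 476 and 15.2 CPM, a ratio of 31.2 (18.9 to 56.0). Kifc1, a minus-end motor that focuses spindle poles, stood at 96.0 and 2.03 CPM, a ratio of 47.2 (12.9 to 392) that rests on 2 UMIs in neuron-like cells. Kif11, Kif15 and Kifc1 were each more than an order of magnitude apart between the clusters. Kifc5b had 59 and 2 UMIs, a ratio of 9.67 (2.56 to 81.7), but the last 1000 bases of the Kifc1 and Kifc5b transcripts are 97.6% identical over 953 bases, so counts may be split between the pair. Summed, the pair had a ratio of 28.4 (11.01 to 105).

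Of the motors on chromosomes and microtubule ends, Kif2c, which takes microtubules apart at centromeres, had 655 UMIs in G2/M-like cells and 1 in neuron-like cells, or 218 and 1.02 CPM, a ratio of 215 (38.4 to 8493). Kif18a, which dampens the oscillation of chromosomes on the spindle, stood at 289 and 7.12 CPM, a ratio of 40.6 (19.6 to 101). Kif18b, which shortens astral microtubules, stood at 44.3 and 1.02 CPM. The chromosome-arm motors Kif4 and Kif22 stood at 237 and 239 CPM in G2/M-like cells and at 7.12 and 13.2 CPM in neuron-like cells, ratios of 33.3 (16.1 to 83.2) and 18.1 (10.5 to 34.1). The intervals of Kif4, Kif18a, Kif18b and Kif22 overlapped one another, so no order among these ratios can be read, while that of Kif2c began above the end of the Kif22 one.

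The motors of the midzone and of cytokinesis had the same direction. Kif23, the motor of the centralspindlin complex, stood at 529 and 11.2 CPM, a ratio of 47.4 (26.4 to 95.05). Kif20b, which acts late in cytokinesis, stood at 831 and 29.5 CPM, a ratio of 28.2 (19.6 to 42.2). Kif20a, which brings Aurora B to the midzone, and Kif14, which works with citron kinase, had ratios of 32.2 (13.7 to 99.6) and 27.2 (9.20 to 133). The transcript end of Kif20a lies antisense to Cdc23 over 979 bases, and no source used here says whether counting used strand, so some of its counts could belong to Cdc23.

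Transport members ran the other way, but less evenly. Of 16, 11 had at least 50 UMIs over both clusters, and 6 of these were at least 2-fold lower in G2/M-like than in neuron-like cells, where 11.1% of all genes were. The other 5 lay between the fold limits and none was at least 2-fold higher in G2/M-like cells. The median log2 ratio of the 11 was -1.22. Of the 6, Kif21b reached the minimum through neuron-like cells, with 89 UMIs there and 40 in G2/M-like cells, so its place in the count is no evidence about it.

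Kif5a, Kif5b and Kif5c encode the heavy chains of conventional kinesin, and they separated. Kif5a, a neuronal form, stood at 19.7 CPM (14.97 to 25.4) in G2/M-like and 159.6 CPM (136 to 187) in neuron-like cells, a ratio of 0.123 (0.0897 to 0.167). Kif5c, also neuronal, stood at 183 and 589 CPM, a ratio of 0.310 (0.276 to 0.349). Kif5b, the form found in most tissues, stood at 349 CPM (328 to 370) and 353 CPM (317 to 392), a ratio of 0.988 (0.874 to 1.12). So the interval of Kif5b holds 1, and those of Kif5a and Kif5c lie below 0.35 for G2/M-like over neuron-like cells.

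Of the kinesin-3 motors, Kif1a, which carries synaptic vesicle precursors, stood at 41.0 and 95.6 CPM, a ratio of 0.429 (0.325 to 0.567). Kif1b, which carries mitochondria and vesicles, stood at 325 and 873 CPM, a ratio of 0.372 (0.339 to 0.409). Kif13a, a motor of endosomes, had a ratio of 0.762 (0.503 to 1.17), an interval that holds 1. The kinesin-2 motors also differed from one another. Kif3a and Kif3b, the pair that also moves cargo inside cilia, had ratios of 0.885 (0.739 to 1.06) and 0.676 (0.497 to 0.929), while Kif3c, an alternative partner of Kif3a, stood at 11.7 and 42.7 CPM with a ratio of 0.273 (0.169 to 0.438). The end of the Kif3c transcript overlaps antisense transcripts over its last 1000 bases, with the same limit as for Kif20a. The kinesin-4 motors that restrain microtubule growth split as well: Kif21b stood at 13.3 and 90.5 CPM, a ratio of 0.147 (0.0988 to 0.216), and Kif21a at 302 and 397 CPM, a ratio of 0.759 (0.673 to 0.856).

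**Figure D1:**
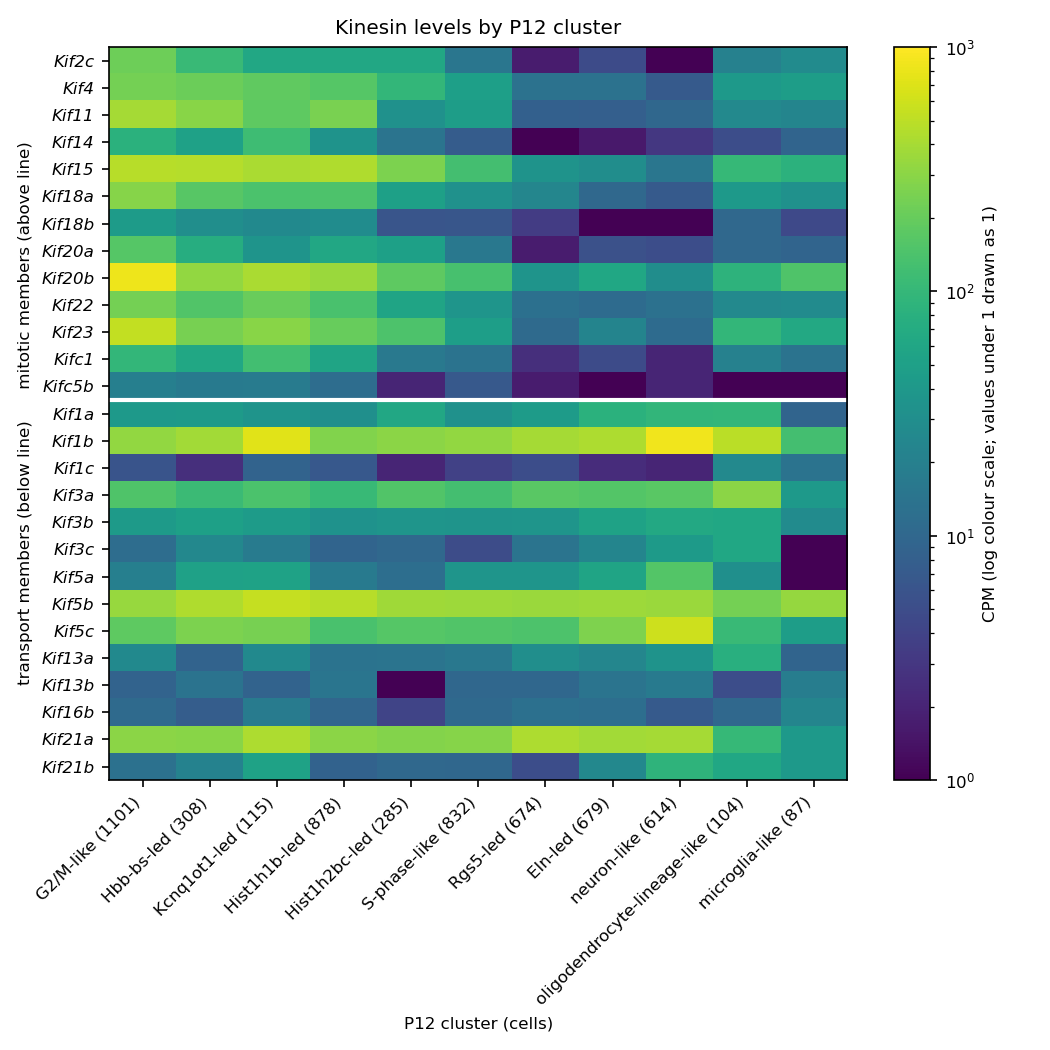
Level of each described mitotic and transport kinesin (rows) in the 11 P12 clusters of 87 or more cells (columns, number of cells in brackets) in CPM on a log colour scale, with 1 value per cluster from 1 library. Summed mitotic levels are highest in the G2/M-like cluster (3620.2 CPM) and lower in the Kcnq1ot1-led (2225 CPM), Hbb-bs-led (2191 CPM) and Hist1h1b-led (1946 CPM) clusters; Kif5a, Kif5c and Kif21b are brightest in neuron-like cells, and Kif5b is bright in every column shown.

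**Figure D2:**
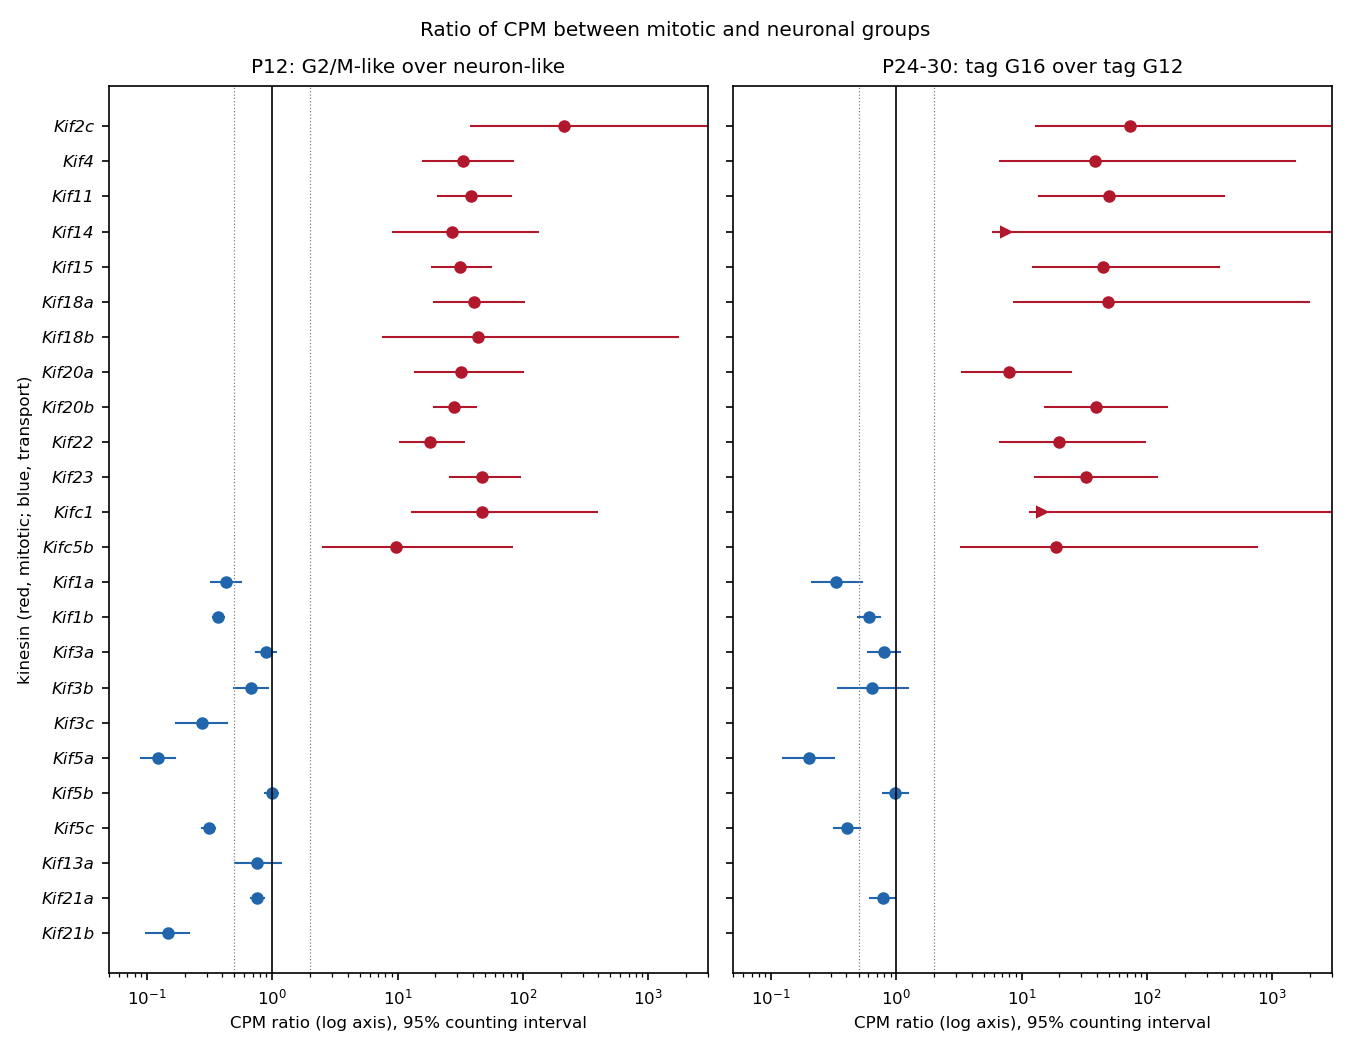
CPM ratio of each member with at least 50 UMIs over both groups, on a log axis, for G2/M-like over neuron-like P12 cells (left) and tag G16 over tag G12 of P24-30 (right). Points are ratios, lines are 95% counting intervals cut at the axis end, arrowheads are lower bounds where the neuronal group had 0 UMIs, and dotted lines mark 2-fold; every red (mitotic) point lies above 2 and no blue (transport) point does.

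Across the 11 P12 clusters of 87 or more cells, 11 of 13 mitotic members were highest in the G2/M-like cluster. The other two, Kif14 and Kifc1, were highest in 115 cells led by Kcnq1ot1, whose median of 863 UMIs was the lowest of all clusters. There they rest on 13 and 14 UMIs, with intervals that overlap the G2/M-like ones. Of the 16 transport members, 6 were highest in neuron-like cells and 6 in the 104 oligodendrocyte-lineage-like cells, but the interval of the first cluster overlapped that of the second for 4 and 5 of these, so most of this order is within counting error. Among these 12 the exceptions were Kif5a, Kif5c and Kif3a. For Kif5a and Kif5c the neuron-like cluster was first and the 679 cells led by Eln, Mroh2a and Chrna3 second, at 56.1 and 259.6 CPM, with intervals that did not overlap. Kif3a was highest in oligodendrocyte-lineage-like cells, at 298 CPM against 169 CPM in neuron-like cells, again without overlap.

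A share of cells with a UMI depends on depth, so each cell was thinned to 500 UMIs. At least 1 mitotic kinesin UMI was then seen in 82.7% (80.3 to 84.8) of G2/M-like cells, 21.9% (19.1 to 24.8) of S-phase-like cells and 4.89% (3.32 to 6.90) of neuron-like cells. Of the 87 microglia-like cells (median 2091 UMIs), 11.5% (5.65 to 20.1) had one. These cells also held 2530 CPM of G2/M markers, against 516 CPM in neuron-like cells, so they are no clean background for mitotic kinesins. Whether the neuron-like share reflects expression was not tested. At least 1 transport kinesin UMI was seen in 49.3% (46.3 to 52.3) of G2/M-like cells, 74.9% (71.3 to 78.3) of neuron-like cells and 32.2% (22.6 to 43.1) of microglia-like cells. Without thinning, 92.6% of G2/M-like cells held both a mitotic and a transport UMI, and the median G2/M-like cell held 5 different mitotic members, against 0 in the median neuron-like cell.

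Kif5a was at 0 UMIs in microglia-like cells, and after thinning it was seen in 6.51% (4.69 to 8.77) of neuron-like and 1.09% (0.564 to 1.90) of G2/M-like cells; unthinned, these shares were 21.2% and 4.90%. Kif5b was seen after thinning in 19.5% (11.8 to 29.4) of microglia-like cells, 15.8% (13.7 to 18.1) of G2/M-like cells and 14.3% (11.7 to 17.4) of neuron-like cells, 3 shares whose intervals overlap.

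**Figure D3:**
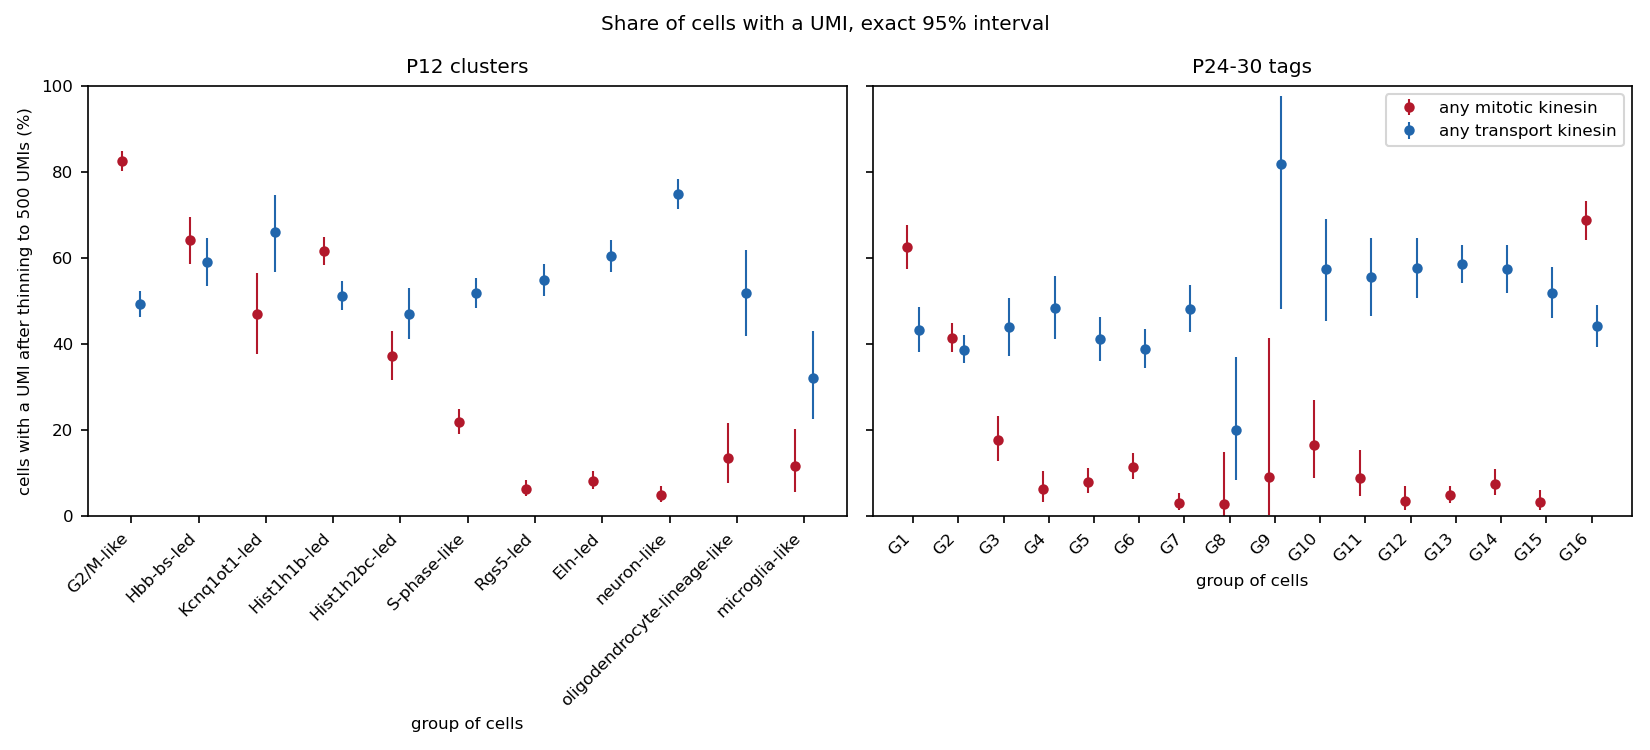
Share of cells with at least 1 UMI of any mitotic (red) or any transport (blue) kinesin after each cell was thinned to 500 UMIs, by P12 cluster (left) and P24-30 tag (right), with exact 95% binomial intervals. Red points are highest for G2/M-like cells at P12 (82.7%) and for tags G16 (68.8%) and G1 at P24-30; tag G9 holds 11 cells and has a wide interval.

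Levels of the mitotic members were also set side by side between groups of dividing cells. Of P12 cells, 878 formed a cluster led by the histone genes Hist1h1b, Hist1h1e and Hist1h1a, and 5 of the 13 mitotic members were at least 2-fold higher in G2/M-like cells than there, where 2.5% of 8846 genes were. These were Kif2c at 3.48-fold (2.87 to 4.25), Kif23 at 2.61-fold (2.34 to 2.93), Kif20a at 2.57-fold (2.10 to 3.15), Kif14 at 2.36-fold (1.80 to 3.12) and Kif20b at 2.32-fold (2.13 to 2.53). Kif18a, at 1.99-fold (1.74 to 2.28), lay just inside the limit. Kif15, which acts on the spindle, was nearly level at 476 and 436 CPM, a ratio of 1.09 (1.00 to 1.19), and Kif4 and Kif11 had ratios of 1.48 (1.30 to 1.70) and 1.58 (1.42 to 1.76). The median over the 13 was 0.81 on the log2 scale, against -0.03 over all genes, and 0 of 13 transport members passed the fold in either direction.

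In the 832 S-phase-like cells the 13 mitotic members summed to 541 CPM, against 108 CPM in neuron-like cells. Of the 13, 7 had at least 50 UMIs over both clusters, each through S-phase-like cells, where it was higher, so a count of ratios past 2-fold (13.7% of 7202 genes) is no evidence about them. Kif15 stood at 127 and 15.2 CPM, a ratio of 8.30 (4.91 to 15.1), and Kif22 at 37.1 and 13.2 CPM, a ratio of 2.81 (1.52 to 5.59). Transport members showed 7 of 11 at least 2-fold lower in S-phase-like than in neuron-like cells, where 11.6% of genes were. Among them were Kif21b at 0.111 (0.0610 to 0.191) on 16 and 89 UMIs and Kif3c at 0.118 (0.0478 to 0.254) on 8 and 42 UMIs. Kif21b and Kif3c reached the minimum mainly through neuron-like cells, where they were higher, so their place in that count is no evidence about them. Both comparisons with neuron-like cells use the same neuron-like cells.

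Between the 2 most mitotic tags of P24-30, G16 (417 cells) and G1 (353 cells), 0 of 13 mitotic members passed 2-fold in either direction, where 0.927% of 6258 genes were higher and 2.06% lower. Within that narrow range, Kif23 at 1.56 (1.35 to 1.79), Kif2c at 1.55 (1.29 to 1.87), Kif18a at 1.51 (1.20 to 1.90), Kif20b at 1.49 (1.31 to 1.69), Kifc1 at 1.41 (1.11 to 1.79) and Kif20a at 1.38 (1.08 to 1.78) had intervals above 1. Kif15 was lower in G16, at 275 against 358 CPM, a ratio of 0.770 (0.670 to 0.885). Kif11 at 0.979 (0.851 to 1.13) and Kif4 at 0.988 (0.786 to 1.24) had intervals that hold 1. Kif14, among the 5 past 2-fold at P12, was at 1.35 (0.968 to 1.88) here. Kif15 had the lowest ratio of the 13 in both libraries.

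**Figure D4:**
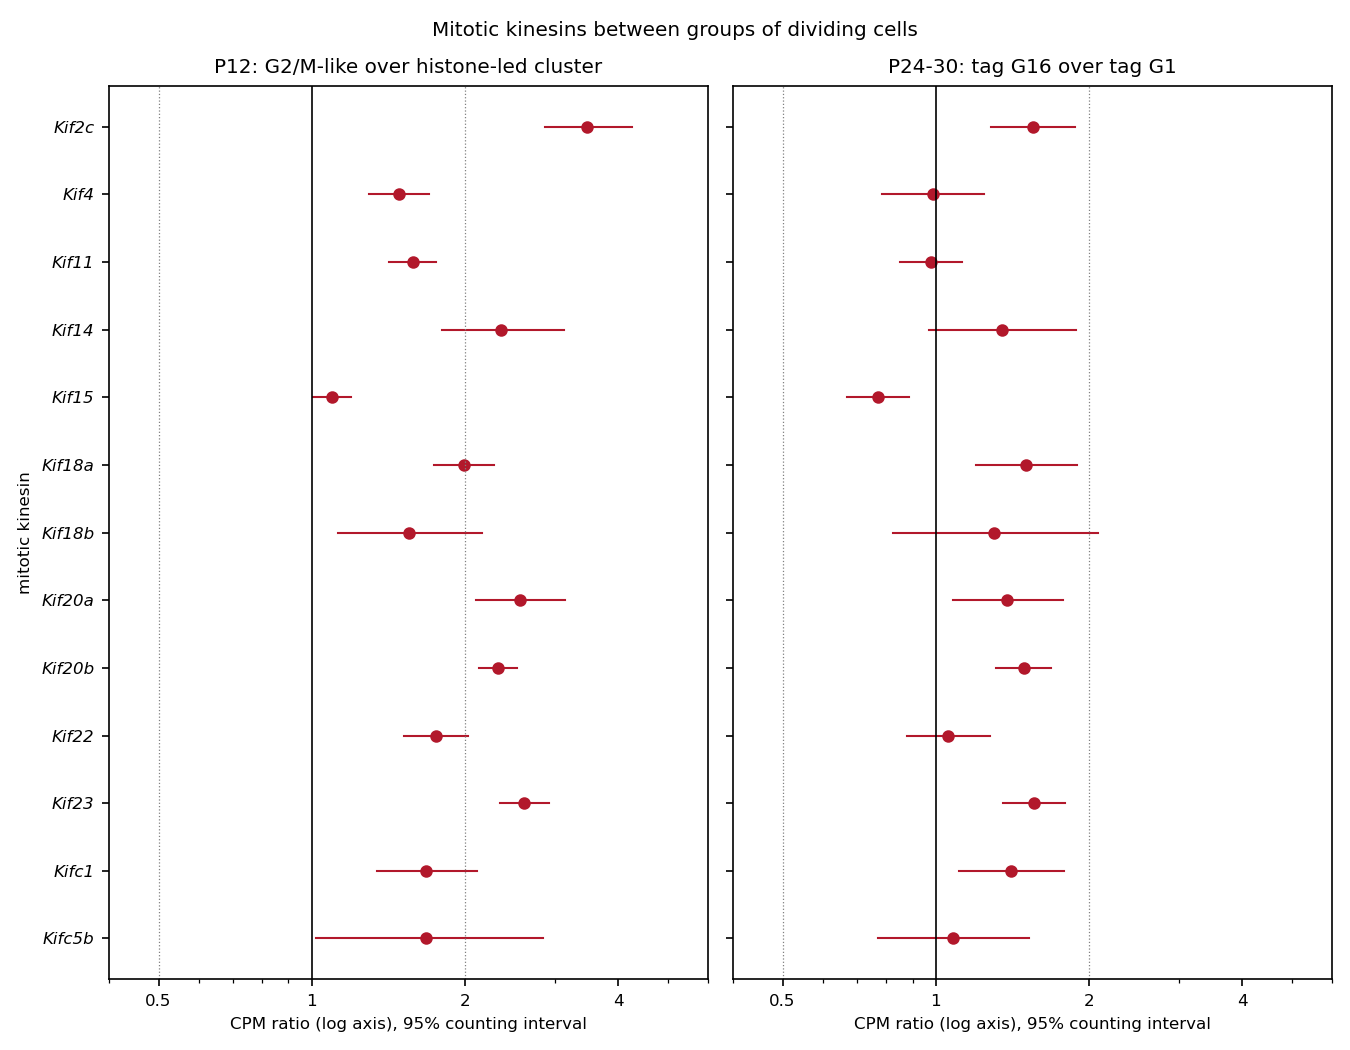
CPM ratio of the 13 mitotic kinesins on a log axis for G2/M-like over Hist1h1b-led P12 cells (left) and tag G16 over tag G1 of P24-30 (right), with 95% counting intervals; dotted lines mark 2-fold. Kif2c and Kif23 lie to the right in both panels and Kif15 is the leftmost point in both, at 1.09 and 0.770.

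Across the tags of P24-30, mitotic members were also high in the most mitotic tags and low in the most neuronal one. Summed mitotic levels were 2562.9 CPM in G16, 2107 CPM in G1, 1106 CPM in G2 and 73.5 CPM in G12. Each of the 13 members had between 49 and 664 UMIs in G16 and between 0 and 5 in G12. The 12 that reached 50 UMIs over both tags did so through G16, so a count of those past 2-fold (10.6% of 5004 genes were at least 2-fold higher) is no evidence about them, and Kif18b, with 49 and 0 UMIs, missed that minimum.

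Kif11 stood at 308 CPM in G16 and 6.12 CPM in G12, a ratio of 50.2 (13.8 to 416) on 422 and 2 UMIs. Kif23 stood at 402 and 12.2 CPM, a ratio of 32.8 (12.8 to 121), and Kif20b at 484 and 12.2 CPM, a ratio of 39.5 (15.4 to 145). Only 4 UMIs of each were seen in G12, so these ratios are known to an order of magnitude. Kif14 and Kifc1 had 94 and 184 UMIs in G16 and 0 in G12. With the G12 count set to 3 UMIs, their ratios were 7.46 and 14.6. The lower limits of their intervals were 5.95 and 11.75, with no upper limit. Kif20a had the lowest measured ratio, 7.95 (3.34 to 24.8) or 2.99 on the log2 scale, with 5 UMIs in G12, but 5.05 on the log2 scale when cells were classed by marker share. Among 13 tags with at least 100 cells, 10 mitotic members were highest in G16 and 3 (Kif4, Kif11 and Kif15) in G1; the intervals of G16 and G1 overlapped for 5 of the 10 (Kif14, Kif18b, Kif20a, Kif22 and Kifc5b) and for Kif4 and Kif11, and not for Kif15.

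Of the transport members, 8 had at least 50 UMIs over G16 and G12, and 3 of these were at least 2-fold lower in G16, where 8.63% of genes were. Kif5a stood at 27.0 and 134.7 CPM, a ratio of 0.200 (0.126 to 0.317), Kif1a at 35.7 and 107 CPM, 0.333 (0.212 to 0.530), and Kif5c at 139.9 and 346 CPM, 0.404 (0.319 to 0.515). Kif5a, Kif1a and Kif5c were also at least 2-fold lower in G2/M-like than in neuron-like P12 cells. Lower transport levels were not particular to dividing groups. At P12, summed transport levels were 1489 CPM in G2/M-like, 2900 CPM in neuron-like and 1688 CPM in Rgs5-led cells. The Rgs5-led cells held 151 CPM of mitotic members. At P24-30, summed transport levels were 1228 CPM in G16, 1966 CPM in G12 and 1258 CPM in G5. Tag G5 held 188 CPM of mitotic members. Kif1b, past the fold at P12, had a ratio of 0.604 (0.492 to 0.744) here. Kif5b, at 300.2 and 306 CPM, had a ratio of 0.981 (0.786 to 1.23), and Kif3a at 0.798 (0.599 to 1.08) and Kif3b at 0.635 (0.343 to 1.24, on 40 and 15 UMIs) also had intervals that hold 1, which give no direction. The count of 3 was 6 when cells were instead classed by their share of marker UMIs or at least 10 UMIs were asked of a gene, 5 with 3 tags of each kind, and 1 when at least 100 UMIs were asked of a gene.

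After thinning, at least 1 mitotic UMI was seen in 68.8% (64.1 to 73.2) of G16 cells (median 2965 UMIs), 62.6% (57.3 to 67.7) of G1 cells and 3.40% (1.38 to 6.88) of G12 cells (median 1497 UMIs). In the 35 cells of tag G8 (median 2002 UMIs), the tag with the microglia markers, the share was 2.86% (0.0723 to 14.9). It rests on 1 cell, so the G12 share cannot be placed above, at or below it. At least 1 transport UMI was seen in 44.1% (39.3 to 49.0) of G16 cells, 57.8% (50.7 to 64.6) of G12 cells and 20% (8.44 to 36.9) of G8 cells. Unthinned, the median cell of G16 held 5 mitotic members and that of G12 held 0.

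**Figure D5:**
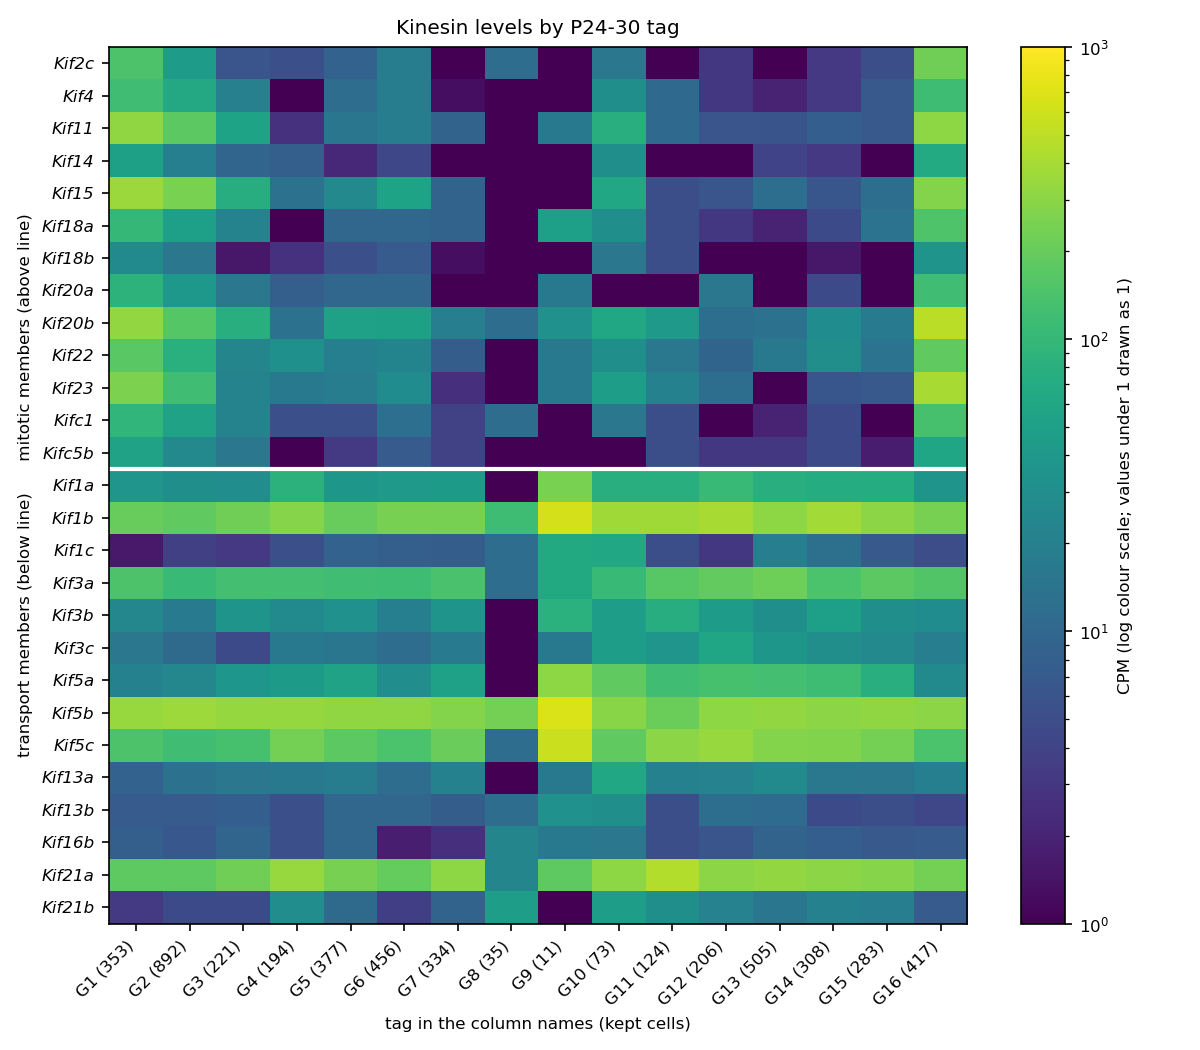
Level of each described mitotic and transport kinesin (rows) in the 16 tags of P24-30 (columns, kept cells in brackets) in CPM on a log colour scale, from 1 library. Mitotic members are bright in G1, G2 and G16, Kif5a and Kif1a are brighter in G11 to G14 than in those 3 tags, and G8 and G9 hold 35 and 11 cells.

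Members of the cilium and Hedgehog group were rare. Kif7, a regulator of Gli proteins at the cilium tip and so a part of the pathway that this model activates, had 64 UMIs at P12 and 45 at P24-30, or 5.39 and 3.72 CPM. Kif24, which acts at the centriole in cilium formation, had 69 and 70 UMIs. None of the 6 reached 50 UMIs over G2/M-like and neuron-like cells or over G16 and G12, so no ratio was formed. Kif27 stood at 94.9 CPM in tag G12, but its 31 UMIs came from 1 cell of 206, and 18 of the 20 Kif24 UMIs in tag G14 also came from 1 cell. Both levels therefore describe single cells and not tags.

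Of the other members, Kif2a, a microtubule depolymerase of spindle poles and of neurons, stood at 186 and 217 CPM in G2/M-like and neuron-like P12 cells, a ratio of 0.859 (0.732 to 1.01), and at 75.8 and 113 CPM in G16 and G12, 0.669 (0.456 to 1.00). Its transcript end overlaps a Dimt1 transcript on the opposite strand over 1000 bases. Kif1bp had ratios of 0.840 (0.614 to 1.16) and 1.96 (0.977 to 4.45), the second on 9 UMIs in G12. Neither gene was past 2-fold in either library, and the direction in the tags turned under alternatives: Kif1bp from 0.97 to -0.67 (marker share) and -0.40 (3 tags of each kind) and Kif2a from -0.58 to 0.25 (3 tags) on the log2 scale.

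Genes that work with the mitotic kinesins were not left out of the clustering, and Cenpe is among the top 10 genes of the G2/M-like cluster, so their P12 levels could help to form the groups and their counts are a description; 0 of the 20 partners are among the 19 G2/M markers. Of these 20 spindle and cytokinesis partners, 19 were at least 2-fold higher in G2/M-like than in neuron-like P12 cells (12.2% of all genes). In G16 over G12, 18 of the 19 with enough UMIs were that much higher (10.6% of all genes). These 19 reached the minimum count through G16, so the count of 18 is no evidence about the partners. Kntc1, with 26 UMIs in G16 and 0 in G12, missed that minimum. Ect2, the activator of RhoA that centralspindlin recruits, stood at 300.2 and 2.03 CPM at P12, next to Kif23. Cenpe, itself a kinesin whose symbol the rule does not reach, stood at 961 and 15.3 CPM in G16 and G12, a ratio of 62.8 (26.8 to 194). Numa1, a spindle pole protein, was the exception in both libraries, at 1.07 (0.843 to 1.37) and 1.83 (0.945 to 3.97).

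Light chains, adaptors and cargo linkers of the transport kinesins were in part lower in the mitotic than in the neuronal groups. Their median log2 ratios were -0.96 at P12 and -0.84 in the tags. At least 2-fold lower were 10 of 21 in G2/M-like than in neuron-like cells and 5 of 12 in G16 than in G12. At least 2-fold higher were 0 in both. Of all genes, 11.1% and 8.63% were that much lower and 12.2% and 10.6% higher. Rab3a, a synaptic vesicle protein that Kif1a and Kif1b carry with the linker Madd, was the lowest in both, at 17.7 and 167 CPM at P12 (0.106, 0.0762 to 0.145) and 18.9 and 122 CPM in the tags (0.155, 0.0906 to 0.260). Fez1, an adaptor of conventional kinesin, was the highest in both, at 1.49 (1.25 to 1.80) and 1.44 (1.02 to 2.09). Of genes for dynein and dynactin, the motor that runs in the other direction, 3 of 17 were at least 2-fold lower and 1 higher at P12, and 3 of 16 lower and 1 higher in the tags. Against the same shares of all genes, these counts are not a result about dynein genes. The 1 higher was Nde1, a dynein regulator of mitosis, at 25.7 (11.7 to 70.3) and 12.9 (4.95 to 47.6), while its relative Ndel1 had a ratio of 0.729 (0.497 to 1.09) at P12.

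Between the ages, levels over all kept cells were set relative to the median gene, whose own log2 ratio of P24-30 over P12 was -0.26. Of the 39 members, 32 had at least 50 UMIs over both libraries. At least 2-fold lower at P24-30 were 2 of them, where 3.58% of 12113 genes were, and 1 was at least 2-fold higher, where 12% were. The 2 lower were 5 without division by the median gene or with a minimum of 10 UMIs, and the 1 higher was 0 with each cell thinned to 500 UMIs, 2 without a filter on cells and 6 with a minimum of 10 UMIs. Kif18a had 121 CPM in the younger and 43.7 CPM in the older library, a relative ratio of 0.432 (0.390 to 0.477), and Kif4 at 118 and 45.1 CPM, 0.458 (0.414 to 0.506). Just outside the limit lay Kif2a at 0.509 (0.474 to 0.548) and Kif20b at 0.514 (0.486 to 0.544). The 1 higher member was Kifc5b, at 9.68 and 20.6 CPM, 2.55 (2.04 to 3.21), but with its near copy Kifc1 added the ratio was 1.39 (1.25 to 1.55).

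The mitotic members had a median log2 ratio of -0.53 between the ages, and 11 of 13 lay below 0, while the 15 transport members with enough UMIs had a median of 0.02 and none passed 2-fold. The 20 spindle partners had a median of -0.57. Kif5a had 40.9 CPM in the younger and 52.5 CPM in the older library, a relative ratio of 1.54 (1.37 to 1.74), and Kif21b at 21.1 and 10.01 CPM, 0.568 (0.453 to 0.708). In sums over all cells, fewer dividing cells and less RNA per dividing cell cannot be told apart, and neither can age and library. The P12 matrix was deposited as counts and the P24-30 matrix as log values, and any other difference in their processing was not given.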

How the data were processed

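The P12 matrix holds whole-number counts per gene and cell barcode as deposited by the authors; they were taken as UMI counts, although collapsing by molecular barcode is not stated. The P24-30 matrix holds natural log values that the authors made from each cell's counts scaled to a constant; back-transformed, a cell's values summed to a median of 9981, and 100% of nonzero values were whole multiples of 1 count within 0.001, which were used as UMIs. Per the submitters' processing notes, CASAVA and the mm10 genome were used; the aligner, counter and annotation were not given in the sources used here. In all, the matrices held 6000 cells with 12265399 UMIs (P12) and 4991 cells with 12256463 UMIs (P24-30).

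Cells with fewer than 500 UMIs or more than 20% mitochondrial UMIs were left out (9 and 268 cells at P12, 153 and 49 at P24-30). No doublet caller was run, so doublets can remain. P12 cells were clustered with scanpy 1.11.5 (2000 variable genes without Kif and Kifc genes, 30 principal components, 15 neighbours, Leiden resolution 1). A cluster was named when the mean log2 ratio of a marker list to all other cells, with 20 CPM added, was at least 1 (G2/M, S phase, neuron) or 2.5 (other types) with at least 3 markers raised; these limits were set after the clusters were seen. Tags were chosen by summed markers among those with at least 100 cells.

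UMIs were summed per group. Ratios of CPM were formed for genes with at least 50 UMIs over both groups, with exact 95% intervals (Poisson for CPM, conditional binomial for ratios, Clopper-Pearson for shares), and a gene was counted at 2-fold or more. A group at 0 was set to 3 UMIs. The interval step was tested on simulated data. Members with at least 50 UMIs in a library were described, and of each partner list the 3 highest and 3 lowest by ratio could be named; Ndel1 was named after its value was seen. The members and lists were chosen with earlier results of these data known. Alternatives tried were other clusterings, classes by marker share, more tags, other minimum counts and cell filters, scaling to the median gene and thinning.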

Additional observations from a re-analysis of the deposited data

Results flagged for a closer look

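Some genes with kinesin-like symbols were listed in 1 matrix only and so stood outside every comparison. The P12 matrix listed the pseudogenes Kif4-ps with 11 UMIs and Kif22-ps with 4 UMIs over the kept cells. The P24-30 matrix listed Kif12 with 7 UMIs. Each lay above the 3 UMIs that a count of 0 allows, with no control sample to compare with.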

How the results depend on the processing

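The counts of mitotic and transport members past 2-fold between G2/M-like and neuron-like P12 cells stayed within 1.5 times under every alternative run for them. The 3 transport members lower in G16 than in G12 became 6 with cells classed by marker share, 5 with 3 tags of each kind, 6 with a minimum of 10 UMIs and 1 with a minimum of 100 UMIs. The 2 members lower at P24-30 became 5 with a minimum of 10 UMIs and 5 without division by the median gene; the 1 higher became 2 without a filter on cells, 6 with a minimum of 10 UMIs and 0 with each cell thinned to 500 UMIs. The share of cells with any member rose from 76.8% to 92.6% (1000 UMIs) and 97.2% (unthinned) at P12, and from 62.6% to 82.7% and 93.9% at P24-30. The cause was not tested, except that lower minimums admit more genes and more UMIs per cell give more cells with a UMI. Kif1bp, above 1 in G16 over G12 (log2 0.97), was below it with marker share (-0.67) and with 3 tags (-0.40), and Kif2a, below 1 there (log2 -0.58), was above it with 3 tags (0.25). Kif20a in the same comparison moved from 2.99 to 5.05 on the log2 scale with marker share. No paired analysis was possible because each age has 1 library. Depth limits ratios of mitotic members against neuronal groups, where few UMIs were seen.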

Other observations

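At P12, 308 cells led by the haemoglobin genes Hbb-bs, Hbb-bt and Hba-a1 held 2191 CPM of mitotic kinesins, and at least 1 mitotic UMI was seen in 64.3% (58.6 to 69.6) of them after thinning to 500 UMIs. The 115 cells led by Kcnq1ot1, the shallowest cluster, held both 2225 CPM of mitotic and 2349 CPM of transport kinesins. The 87 microglia-like and 104 oligodendrocyte-lineage-like cells held 492 and 488 CPM of mitotic kinesins, above the 108 CPM of neuron-like cells and the 151 CPM of the 674 cells led by Rgs5, Sned1 and Hes1. Whether doublets or free RNA contribute to these levels was not tested.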
